A study of Homo sapiens with 24 samples.

Results

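The genes described are ORC1, ORC6, CDC6, CDT1, GMNN, DTL, CDC7 and DBF4, which encode proteins that license and fire replication origins. A probe was assigned to a gene when its RefSeq accession mapped to that gene, which gave 8 genes of the 20992 genes named through RefSeq on the 24 h array and of the 22439 on the 48 h array. Their expression was measured in LNCaP cells, a line derived from a prostate cancer metastasis, on one-colour Agilent arrays. The cells were transfected with si-A1, an siRNA that targets the long non-coding RNA TAPIR-1, with si-A2, which targets TAPIR-2, or with the scrambled control si-SCRL. All cells were grown in RPMI-1640 with serum and electroporated, and the protocols name no other agent. RNA was isolated 24 h or 48 h after transfection from 4 biological replicates per siRNA, and every sample had an array of its own. All samples were of the same cell line, and each lncRNA was targeted with 1 siRNA sequence on these arrays, so an effect of the sequence and an effect of the target cannot be told apart. The comparisons ask how each siRNA changed these transcripts, whether the siRNAs differed, and whether the effects changed between 24 h and 48 h.

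Origins are licensed when the origin recognition complex (ORC), whose subunits include ORC1 and ORC6, binds DNA and loads the MCM2-7 helicase together with CDC6 and CDT1. Licensing is restricted to a window before S phase: geminin, encoded by GMNN, binds and inhibits CDT1, and DTL, also called CDT2, is the substrate receptor of the CRL4 ubiquitin ligase that marks CDT1 for degradation during S phase. Licensed origins fire when the kinase CDC7, activated by its subunit DBF4, and cyclin-dependent kinases act on the loaded helicase. Many of these genes are transcribed periodically in proliferating cells, with E2F factors acting on their promoters. In a bulk sample, fewer cells in a given cell cycle phase and less RNA per cell cannot be told apart.

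The promoters are shown because 5 of the 8 transcripts were called lower after both siRNAs at 24 h. Sequences are RefSeq promoter windows of GRCh38.p14, 250 bases before to 50 bases after a transcript start, 5′ to 3′ on the gene's strand. All 8 genes matched, with 10 windows, since CDC7 and GMNN have 2 windows each. Capitals mark matches on either strand to the E2F-type words TTTGGCGC, TTTCCCGC, TTTCGCGC and TTTGCCGC, the CHR-type words TTTGAA and TTCGAA, and CCAAT, where a match to the reverse strand reads as the reverse complement. No match of a class overlapped a match of another class in these windows. DTL had the largest fall at 24 h in the model reported, and the si-A1 effect on GMNN changed between the time points. The windows below are those of DTL, CDC6 and ORC6 and the second window of GMNN. They lie at chr1:212035498-212035797, chr17:40287629-40287928, chr16:46689409-46689708 and chr6:24775163-24775462, all on the plus strand.
DTL: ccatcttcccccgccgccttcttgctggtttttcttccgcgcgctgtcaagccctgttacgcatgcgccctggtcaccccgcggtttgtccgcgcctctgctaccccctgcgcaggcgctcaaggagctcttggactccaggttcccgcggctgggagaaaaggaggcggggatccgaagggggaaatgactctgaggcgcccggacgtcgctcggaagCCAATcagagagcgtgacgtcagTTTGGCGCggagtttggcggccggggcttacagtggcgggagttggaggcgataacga
CDC6: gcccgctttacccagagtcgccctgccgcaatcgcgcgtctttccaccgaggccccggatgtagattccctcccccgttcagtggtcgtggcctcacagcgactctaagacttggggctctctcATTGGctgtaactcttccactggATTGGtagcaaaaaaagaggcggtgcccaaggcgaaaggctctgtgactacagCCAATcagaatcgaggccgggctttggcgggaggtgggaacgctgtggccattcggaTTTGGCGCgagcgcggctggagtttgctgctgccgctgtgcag
ORC6: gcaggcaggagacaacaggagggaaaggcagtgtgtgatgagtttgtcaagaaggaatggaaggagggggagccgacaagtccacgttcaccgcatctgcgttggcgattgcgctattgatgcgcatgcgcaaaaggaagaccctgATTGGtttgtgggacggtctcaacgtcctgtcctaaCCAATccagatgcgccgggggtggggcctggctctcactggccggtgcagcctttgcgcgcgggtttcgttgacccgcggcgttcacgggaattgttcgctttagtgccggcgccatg
GMNN: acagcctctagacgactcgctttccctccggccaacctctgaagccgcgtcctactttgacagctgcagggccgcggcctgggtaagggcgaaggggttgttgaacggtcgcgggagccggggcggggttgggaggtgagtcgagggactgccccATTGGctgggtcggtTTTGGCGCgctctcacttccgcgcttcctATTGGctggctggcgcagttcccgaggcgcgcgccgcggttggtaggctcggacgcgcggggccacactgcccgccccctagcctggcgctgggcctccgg
An E2F-type word was found in 5 of the 10 windows, belonging to CDC6, CDC7, CDT1, DTL and GMNN, beside 3.31% of the 35116 windows of all genes. CCAAT was found in 5 of the 10 windows and in 34.6% of all windows. A CHR-type word was found in 1 of the 10, that of DBF4, beside 16.4% of all windows. The ORC1 and ORC6 windows hold CCAAT but none of the E2F-type words. In DTL the E2F-type word began 8 bases before the transcript start, and in CDC6 it began at base 8 of the transcript. A match of letters is a description and does not show binding.

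Values are log2 processed intensities after quantile normalization between the arrays of a time point, so a difference of 1 is a 2-fold difference. The median processed intensity of an array ranged over 24.4 to 57.2 on the 24 h arrays and 20.4 to 32.2 on the 48 h arrays, without saturated spots, and precision is limited by how many arrays there are. The 48 h array of si-A2 replicate 2 was dim, with a 99th percentile of 4028 against 10170 to 20682 on the others, and its median correlation with the other 48 h arrays was 0.629 against at least 0.967 for the rest. It was left out, which left 3 arrays of si-A2 at 48 h, and values with it are given where results rest on it. Each time point used 2 slides, with replicates 1 and 2 of all siRNAs on one and replicates 3 and 4 on the other, and the position of an array on its slide followed the siRNA, so siRNA and position cannot be told apart. Time and array version cannot be told apart either, since each time had its own version. A probe was called where limma gave an adjusted p below 0.01 over all probes tested and the log2 fold change was 0.5 or more in size. The LNCaP markers KLK3, KLK2, FOLH1, TMPRSS2 and HOXB13 were well above background on all 12 arrays at 24 h and all 11 at 48 h. Of the 6 markers of other cell types, CHGA and COL1A2 were on none, COL1A1 on 3 and 0, VIM on 12 and 10, PECAM1 on 12 and 8, and PTPRC on 12 and 11, and none was called in a comparison of siRNAs (CHGA was not tested at 48 h). VIM had log2 fold changes of -0.90 at 24 h and -1.42 at 48 h after si-A1 (limma adjusted p = 0.320 and 0.118), and its part in the results was not tested. Of these LNCaP markers, 1 was called against si-SCRL, KLK2, which was lower after si-A1 at 48 h. A probe for TAPIR-2 read 5.04 ± 0.20 (SD, n = 4) after si-SCRL and 4.06 ± 0.74 (SD, n = 4) after si-A2 at 24 h (limma adjusted p = 0.238), and 4.64 ± 0.58 (SD, n = 4) and 4.68 ± 0.90 (SD, n = 3) at 48 h (adjusted p = 0.724). A further TAPIR-2 probe, on the 48 h version alone, was rated well above background on none of the 11 arrays. TAPIR-1 itself was not analysed here.

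The 8 genes were measured by 9 probes on each array version. The additional probe, for DBF4, was rated well above background on no array and did not pass the threshold at either time, so it gave no value, and each gene was read by 1 probe. The probes for DTL and ORC6 were spotted 10 times per array, and the spots of an array had a median SD of 0.385 for DTL and 0.0962 for ORC6 at 24 h.

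ORC1 (chr1:52372829-52409503 of GRCh38.p14, the build of all gene positions given) encodes the subunit that binds and hydrolyses ATP when ORC loads the helicase. At 24 h it read 7.02, 7.51, 6.83 and 7.05 in replicates 1 to 4 of si-SCRL, 4.82, 4.36, 4.93 and 4.43 after si-A1, and 5.15, 4.64, 4.96 and 4.55 after si-A2. Every array of either siRNA was below every si-SCRL array, and the siRNA groups overlapped each other. At 48 h it read 7.02, 7.57, 6.65 and 6.93 after si-SCRL, 4.66, 4.64, 3.87 and 4.27 after si-A1, and 6.49, 5.90 and 6.31 in replicates 1, 3 and 4 of si-A2. The si-A2 arrays now lay between the other groups, without overlap. ORC1 fell by 2.46 (SE 0.20, limma adjusted p = 0.000128) after si-A1 and fell by 2.27 (SE 0.20, adjusted p = 0.000181) after si-A2 at 24 h. At 48 h it fell by 2.68 after si-A1 (SE 0.16, adjusted p = 7.27e-05), while the log2 fold change after si-A2 was -0.73 (SE 0.18, adjusted p = 0.0793). The probe was well above background on 3 of the 4 si-A1 arrays at 24 h and on all others used.

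ORC6 (chr16:46689659-46698394) encodes the smallest ORC subunit, needed for helicase loading. At 24 h it read 7.85, 7.98, 8.62 and 8.0 after si-SCRL, 5.72, 5.28, 5.54 and 5.14 after si-A1, and 5.68, 5.59, 5.56 and 5.48 after si-A2. At 48 h the values were 8.04, 8.20, 7.60 and 7.96 after si-SCRL, 4.97, 5.20, 4.25 and 5.05 after si-A1, and 7.47, 6.53 and 7.27 after si-A2. As for ORC1, the si-A1 and si-A2 arrays occupied the same range at 24 h and were separate at 48 h. ORC6 fell by 2.70 (SE 0.19, limma adjusted p = 5.73e-05) after si-A1 and fell by 2.54 (SE 0.19, adjusted p = 7.06e-05) after si-A2 at 24 h. After si-A1 it fell by 3.08 at 48 h (SE 0.21, adjusted p = 8.99e-05), a fold of 8.48. The 48 h value after si-A2 was -0.79 (SE 0.23, adjusted p = 0.144).

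CDC6 (chr17:40287879-40304657) encodes the ATPase that joins ORC on DNA to load the helicase, and its change was modest in size. It read 5.81, 5.71, 5.86 and 5.64 after si-SCRL at 24 h, 4.87, 5.09, 5.02 and 4.82 after si-A1, and 5.08, 4.95, 4.79 and 4.89 after si-A2. At 48 h it read 5.79, 5.32, 5.39 and 5.45 after si-SCRL, 4.56, 4.67, 4.51 and 4.59 after si-A1, and 5.25, 4.89 and 5.17 after si-A2. The si-A1 and si-A2 groups lay below si-SCRL without overlap at both times. CDC6 fell by 0.80 (SE 0.12, limma adjusted p = 0.00552) after si-A1 and fell by 0.83 (SE 0.12, adjusted p = 0.00487) after si-A2 at 24 h, and fell by 0.91 (SE 0.12, adjusted p = 0.00211) after si-A1 at 48 h. After si-A2 at 48 h the value was -0.37 (SE 0.13, adjusted p = 0.227). Without background correction the 24 h values were -0.36 and -0.34, below the fold required for a call, so neither was called. The 48 h value after si-A1 in that setting was -0.47, also not called. With 1 array left out at a time, the 24 h call was lost in 11 of 12 fits for si-A1 (values -0.85 to -0.75, adjusted p up to 0.0250) and in 9 of 12 for si-A2 (values -0.87 to -0.77, adjusted p up to 0.0261).

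CDT1 (chr16:88803789-88809258) encodes the factor that brings MCM2-7 to ORC and CDC6. At 24 h it read 7.72, 7.96, 7.35 and 7.86 after si-SCRL, 6.65, 6.13, 6.26 and 5.98 after si-A1, and 6.29, 5.91, 6.20 and 6.02 after si-A2. At 48 h it read 7.45, 7.30, 7.12 and 7.35 after si-SCRL, 5.34, 5.28, 5.06 and 5.58 after si-A1, and 6.72, 6.0 and 7.09 after si-A2. The 3 si-A2 arrays at 48 h spanned the widest range of any CDT1 group, and the highest of them was just below the lowest si-SCRL array. CDT1 fell by 1.47 (SE 0.18, limma adjusted p = 0.00134) after si-A1 and fell by 1.62 (SE 0.18, adjusted p = 0.000728) after si-A2 at 24 h. It fell by 1.99 (SE 0.22, adjusted p = 0.000788) after si-A1 at 48 h, and the si-A2 value there was -0.68 (SE 0.24, adjusted p = 0.218).

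GMNN (chr6:24774937-24786099) encodes geminin, the inhibitor of CDT1, and was called after si-A2 but not after si-A1 at 24 h. It read 8.23, 8.25, 8.27 and 8.30 after si-SCRL, 7.89, 8.19, 8.05 and 7.98 after si-A1, and 7.56, 7.68, 7.42 and 7.42 after si-A2. The 3 groups did not overlap, with si-A2 lowest, but the distance of si-A1 from si-SCRL was small. The log2 fold change was -0.24 after si-A1 (SE 0.12, limma adjusted p = 0.442), and GMNN fell by 0.74 after si-A2 (SE 0.12, adjusted p = 0.0084). At 48 h the values were 9.01, 8.71, 8.53 and 8.91 after si-SCRL, 6.99, 7.25, 7.27 and 7.41 after si-A1, and 8.13, 7.88 and 8.35 after si-A2. The order of the siRNA means was the opposite of that at 24 h. Neither difference between the siRNAs was called (limma adjusted p = 0.0756 at 24 h and 0.0251 at 48 h). GMNN fell by 1.56 after si-A1 at 48 h (SE 0.15, adjusted p = 0.000399), and the si-A2 value was -0.68 (SE 0.17, adjusted p = 0.0893). The si-A2 call at 24 h was lost in each of the 12 fits that left out an array (adjusted p from 0.0120 to 0.0415), with a log2 fold change between -0.79 and -0.72.

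DTL (chr1:212035748-212105013) showed the largest fall of the 8 genes after either siRNA at 24 h in the model reported. It read 6.62, 6.86, 7.02 and 7.10 after si-SCRL at 24 h, 3.74, 3.23, 3.18 and 2.15 after si-A1, and 3.26, 1.81, 2.85 and 3.15 after si-A2. The probe was well above background on 1 of the 4 si-A1 arrays and on none of the 4 si-A2 arrays, so the si-A2 level is uncertain. At 48 h it read 6.82, 6.67, 6.63 and 6.65 after si-SCRL, 3.22, 3.49, 3.01 and 3.54 after si-A1, with 2 of these 4 arrays well above background, and 5.95, 5.34 and 5.87 after si-A2. DTL fell by 3.83 after si-A1 at 24 h in the fit (SE 0.37, limma adjusted p = 0.000351), a size that rests on 3 si-A1 arrays not well above background. After si-A2 it was lower at 24 h (adjusted p = 0.000189). The fall was 7.73-fold with each si-A2 array set to its lowest signal rated well above background. That signal is no strict limit, since a probe not so rated can read above it. Over the 14 other settings the 24 h log2 fold change after si-A2 ranged from -4.17 to -1.40, called in all. It fell by 3.37 after si-A1 at 48 h (SE 0.16, adjusted p = 4.31e-05), and the 48 h value after si-A2 was -0.95 (SE 0.17, adjusted p = 0.0313). The sizes depend on background correction: with none, the 24 h value after si-A1 was -1.35, still called. The rank of DTL depends on it too, since ORC6 stayed at -1.68 or below after si-A1 in all 14 other settings.

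The kinase pair CDC7 and DBF4 did not pass the test at 24 h. CDC7 (chr1:91500851-91525764) encodes the catalytic subunit. It read 6.73, 6.05, 7.28 and 6.27 after si-SCRL at 24 h, 5.54, 5.76, 5.54 and 5.74 after si-A1, and 5.39, 5.41, 5.45 and 5.27 after si-A2. The si-SCRL arrays varied widely, and the other groups lay below them without overlap, yet neither difference passed the test: the log2 fold changes were -0.93 (SE 0.23, limma adjusted p = 0.0746) and -1.20 (SE 0.23, adjusted p = 0.0252). At 48 h the spot of si-SCRL replicate 1 was rated an outlier by the scanner software and set aside, and the values were 6.12, 5.69 and 6.33 in si-SCRL replicates 2 to 4, 4.60, 4.78, 4.89 and 4.62 after si-A1, and 5.78, 5.31 and 5.74 after si-A2. CDC7 fell by 1.33 after si-A1 (SE 0.20, adjusted p = 0.00518) and the si-A2 value was -0.44 (SE 0.21, adjusted p = 0.364), with overlap of si-A2 and si-SCRL. The spot set aside read 9.34, and with flagged spots kept the si-A1 value was -2.14 and was not called (adjusted p = 0.0541). The labels do not say whether same-numbered replicates were paired. With a replicate block in place of the slide, the si-A1 call of CDC7 at 48 h was lost (log2 fold change -1.33, adjusted p = 0.0238). It was also lost in 6 of the 11 fits that left out an array (values -1.5 to -1.18, adjusted p up to 0.0287).

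DBF4 (chr7:87876493-87909553) encodes a regulatory subunit that activates CDC7. At 24 h it read 5.99, 6.59, 6.81 and 6.25 after si-SCRL, 5.61, 5.30, 5.55 and 5.66 after si-A1, and 5.97, 5.36, 5.49 and 5.65 after si-A2, whose replicate 1 was close to the lowest si-SCRL array. The log2 fold changes were -0.88 (SE 0.20, limma adjusted p = 0.0544) and -0.79 (SE 0.20, adjusted p = 0.101). At 48 h it read 6.55, 6.73, 6.24 and 6.32 after si-SCRL, 4.69, 4.77, 4.68 and 4.69 after si-A1, and 5.72, 5.13 and 5.46 after si-A2, in 3 separate groups. DBF4 fell by 1.75 after si-A1 (SE 0.12, adjusted p = 7.85e-05). After si-A2 the value was -0.98 (SE 0.13) and missed the threshold narrowly (adjusted p = 0.0110).

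**Figure D1:**
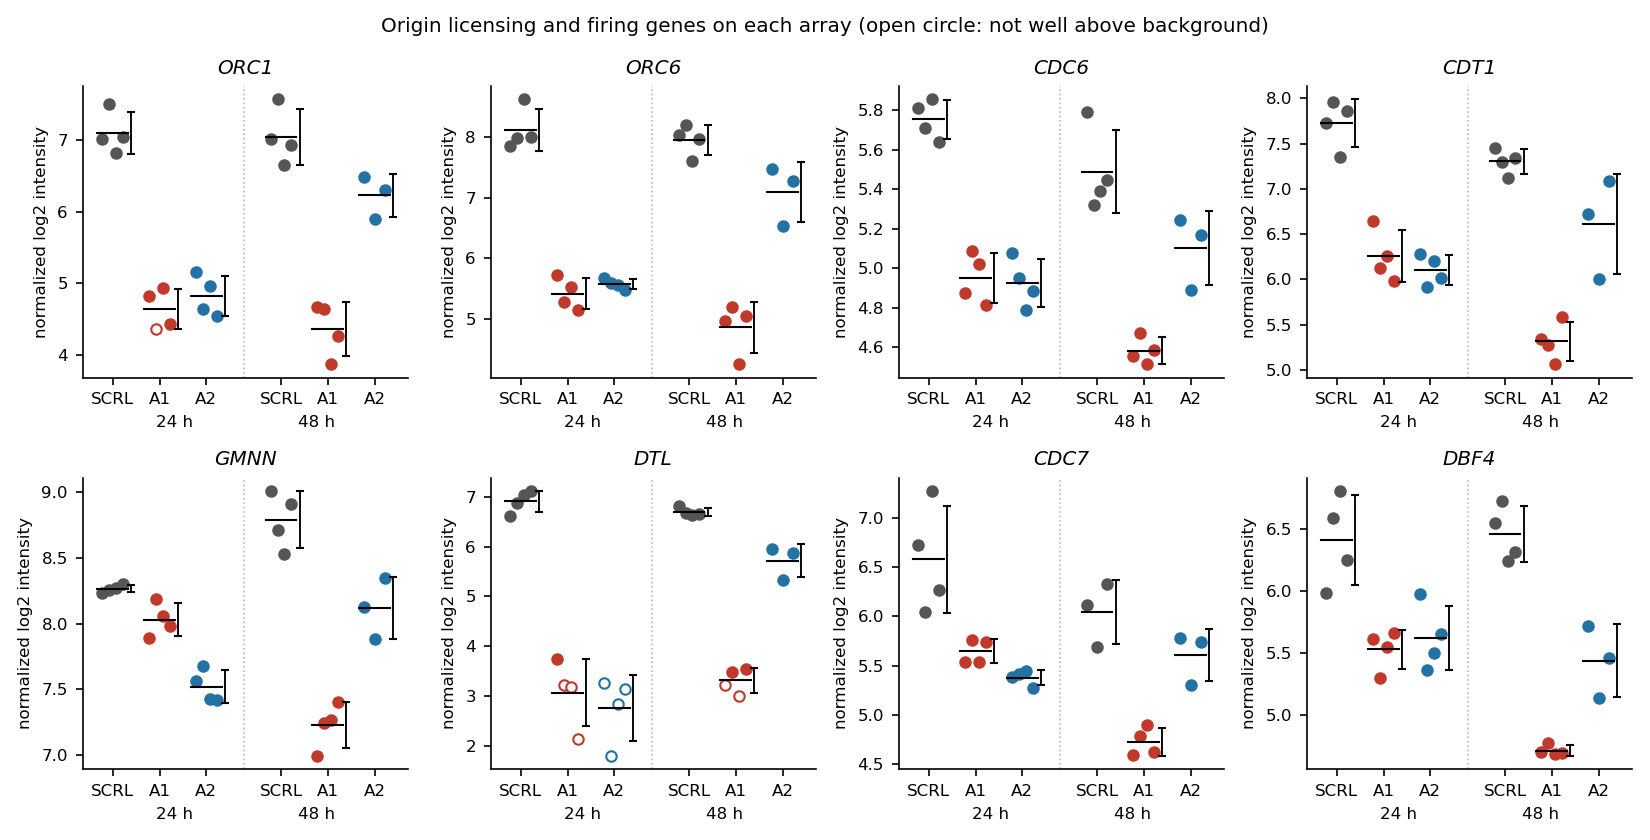
Normalized log2 intensity of the 8 genes (vertical axis, a scale of its own in each panel) on each array for each siRNA and time. Points are arrays in order of replicate, horizontal lines are means, error bars are SDs, and open circles are arrays on which the probe was not well above background. The ORC1 arrays of si-A1 and si-A2 share a range at 24 h (4.36 to 5.15 together), while at 48 h those of si-A2 (5.90 to 6.49) sit between the other groups.

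At 24 h, 5 of the 8 genes fell after si-A1: ORC1, ORC6, CDC6, CDT1 and DTL. DTL, ORC6 and ORC1 had the lowest log2 fold changes, followed by CDT1 and CDC6 among the genes called. The median log2 fold change of the 8 genes was -1.20, while that of all probes tested was 0.04. Of the 46550 probes tested, 0.962% were called lower. All 8 genes were lower in each of the 4 si-A1 arrays than the si-SCRL mean, and in both slides, including CDC7, DBF4 and GMNN, which were not called. Of all probes, 44.8% had a negative log2 fold change, and how many were lower on every array was not computed. With only the 2 groups compared in the fit, 3 genes were called, ORC1, ORC6 and DTL.

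After si-A2 at 24 h, 6 of the 8 genes fell: the same 5 and GMNN. With only the 2 groups compared in the fit, 4 were called, without CDC6 and GMNN. Of all probes, 0.799% were called lower. The median of the 8 genes was -1.41 and that of all probes 0.04. The CDT1 inhibitor GMNN had the smallest change of the 8, and the kinase genes CDC7 and DBF4 did not pass the test. Both comparisons share the si-SCRL arrays.

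The siRNAs were also set against each other at 24 h, and none of the 8 genes was called in limma, while 0.309% of all probes were called in either direction. An unadjusted p below 0.05 was given for 1 of the 8, close to the 11.1% of all probes, and this was GMNN (-0.51, 95% interval -0.77 to -0.25, adjusted p = 0.0756). For ORC1, ORC6, CDC6, CDT1 and DBF4 the difference lay between -0.15 and 0.19, and all 5 intervals fell within -0.55 and 0.64. The interval of CDC7 ran from -0.78 to 0.24. No difference is given for DTL, which was well above background on only 1 of the 8 arrays compared.

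At 48 h, all 8 genes fell after si-A1 in the model reported. The count was 7 of 8 with the replicate block in place of the slide, where CDC7 was lost. It was also 7 without background correction, where CDC6 was lost. In the model reported the log2 fold changes ranged from -3.37 for DTL to -0.91 for CDC6, the median was -1.87, and the median of all probes was 0.04. Of the 51106 probes tested, 3.18% were called lower. GMNN, CDC7 and DBF4, not called after si-A1 at 24 h, were called here. The groups did not overlap for any of the 8 genes, and the share of all probes without overlap was not computed. An unadjusted limma p below 0.05 was given for all 8 and for 25.6% of all probes. With the dim si-A2 array kept in the fit, none of the 8 was called, with log2 fold changes between -3.26 and -0.87.

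After si-A2 at 48 h, none of the 8 genes was called in limma, and 0.200% of all probes were called lower. The values lay between -0.37 for CDC6 and -0.98 for DBF4, with a median of -0.70 (all probes, 0.00). At an unadjusted p below 0.05, 7 of the 8 genes were lower (16.0% of all probes passed in either direction), the exception being CDC7. All 3 arrays were below the si-SCRL mean for each gene. Of all probes, 49.5% had a negative log2 fold change, and how many were lower on every array was not computed. DBF4 was called under 6 of 16 other settings, with a log2 fold change of -0.98 and an adjusted p of 0.00928 after scaling on the 75th percentile. A total of 3 genes, DBF4, DTL and ORC1, were called without background correction. With the dim array kept, 0 were called.

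Set against si-A1 at 48 h, 3 of the 8 genes were higher after si-A2: DTL by 2.43 (SE 0.17, limma adjusted p = 0.000889), ORC6 by 2.30 (SE 0.23, adjusted p = 0.00232) and ORC1 by 1.96 (SE 0.18, adjusted p = 0.00146). These are the genes that had fallen the most at 24 h. Of all probes, 0.697% were called higher. The other 5 genes were 0.54 to 1.31 higher after si-A2, without overlap of the arrays, and were not called (adjusted p from 0.0145 to 0.0624). The share of all probes without overlap was not computed, and 17.2% of them had an unadjusted limma p below 0.05, as had all 8 genes. Within the slides the DTL difference was 2.59 and 2.33, that of ORC6 2.39 and 2.25, and that of ORC1 1.84 and 2.04. Without si-A2 replicate 1, none was called, with differences of 2.33, 2.23 and 2.02 and adjusted p-values of 0.0111, 0.0247 and 0.0146. With the dim array kept, none was called, and the differences were 1.41, 1.32 and 1.49.

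**Figure D2:**
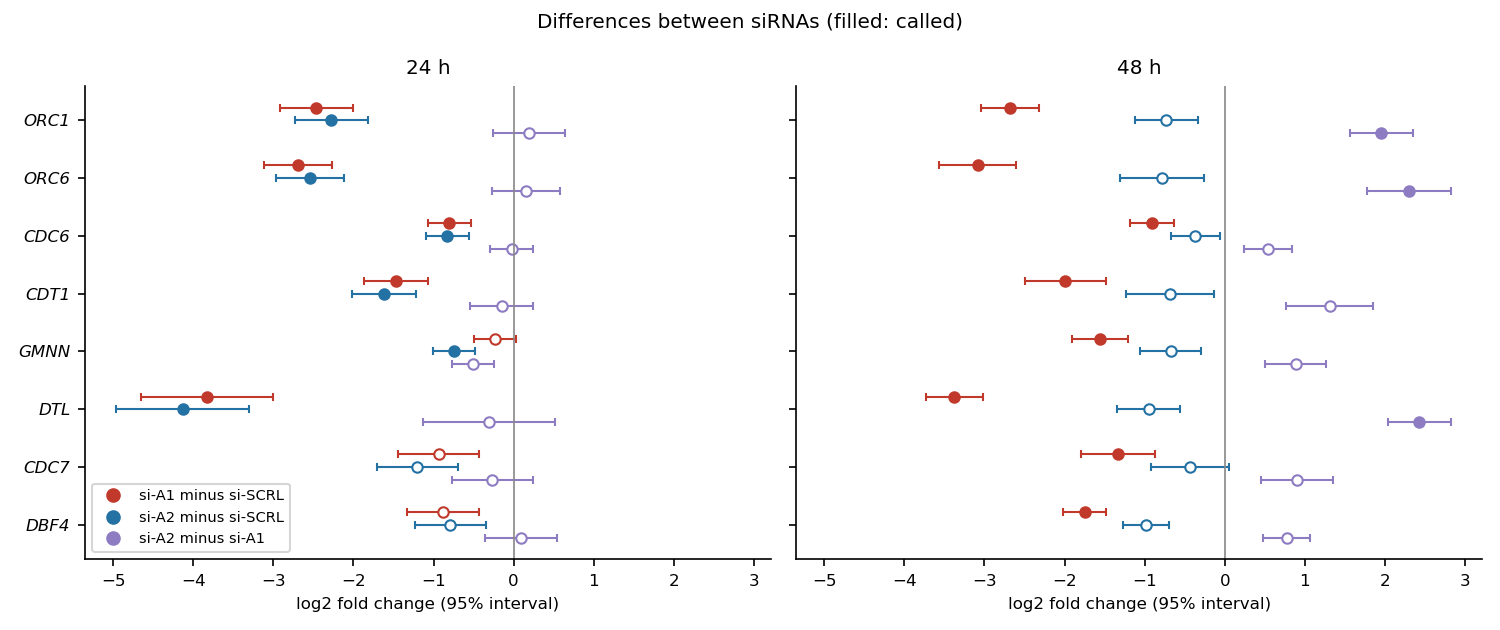
Log2 fold changes (horizontal axis) with 95% intervals for the 8 genes in 3 comparisons at 24 h (left) and 48 h (right), with filled points for called genes. At 24 h both siRNAs shift ORC1, ORC6 and DTL by more than 2 and the intervals of the difference between them for ORC1 and ORC6 span 0, and at 48 h si-A2 lies between 0.37 and 0.98 below si-SCRL. The sizes of the 24 h DTL points are uncertain, since DTL was mostly not well above background after either siRNA.

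Whether an effect differed between the times was asked with an interaction term over the 39779 probes shared by both array versions and above the threshold at both times, with the arrays normalized together. Each effect was measured within an array version. After si-A1, the effect on GMNN grew by 48 h (change of log2 fold change -1.32, SE 0.18, limma adjusted p = 0.00448), and 0.0804% of probes were called in that direction. The other 7 changes were not called (adjusted p from 0.116 to 0.949). They were -0.85 for DBF4, -0.55 for CDT1, -0.42 for ORC6, -0.37 for CDC7, -0.13 for ORC1 and -0.04 for CDC6, while that of DTL had the opposite sign (0.92, adjusted p = 0.406). For GMNN the si-A1 values in this fit were -0.24 at 24 h and -1.56 at 48 h. The call was lost in 7 of the 23 fits that left out an array (adjusted p up to 0.0168), with the change between -1.43 and -1.23.

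After si-A2, the effect on DTL was smaller at 48 h than at 24 h (change 3.52, SE 0.46, limma adjusted p = 0.00306), and 0.0226% of probes were called in that direction. The 24 h level after si-A2 was not well above background, so the size of the change is uncertain. With each 24 h si-A2 array set to its lowest signal rated well above background, the change was 2.00, from values normalized within each time point. Over the 14 other settings it ranged from 0.86 to 3.52. ORC6 changed by 1.73 (SE 0.30, adjusted p = 0.0469) and ORC1 by 1.57 (SE 0.28, adjusted p = 0.0543), in the same direction and not called. CDT1, CDC7 and CDC6 had changes of 0.93, 0.78 and 0.51 (adjusted p from 0.440 to 0.610), and those of GMNN and DBF4 were 0.09 and -0.18. The 3 genes with the largest 24 h effect after si-A2 had the largest changes of the 8. Since the 24 h effect is subtracted in the change, this match of ranks is not a separate result. An unadjusted p below 0.05 was given for 6 of the 8 genes after si-A2 (7.38% of all probes) and for 2 of the 8 after si-A1 (12.4% of all probes). The DTL call was lost in 7 of the 23 fits that left out an array (adjusted p up to 0.0282), with the change between 3.17 and 3.71. Without background correction the change was 1.03, still called. The call was also lost with the replicate block in place of the slide (3.51, adjusted p = 0.0101) and with the dim array kept (2.60, adjusted p = 0.588).

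**Figure D3:**
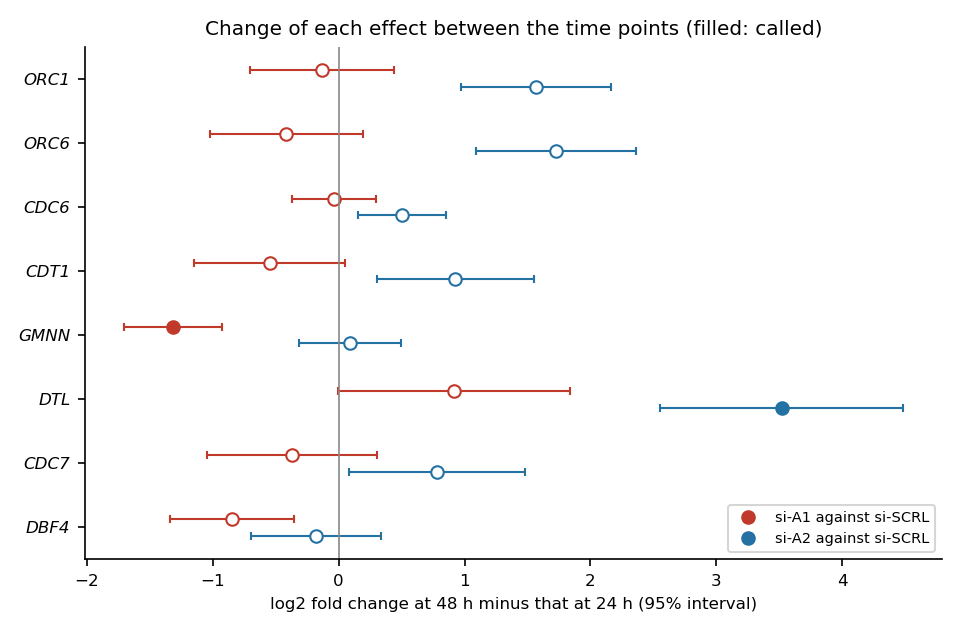
Log2 fold change against si-SCRL at 48 h minus that at 24 h (horizontal axis) with 95% intervals for the 8 genes after si-A1 and si-A2, with filled points for called changes. GMNN after si-A1 lies at -1.32 and DTL after si-A2 at 3.52, and the si-A2 points of ORC1 and ORC6 lie at 1.57 and 1.73.

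The other genes of the pathway were read from lists of 12 genes of ORC and helicase loading, 18 genes of origin firing and 15 genes of CDT1 turnover and control. In the first list 6 of 12 genes fell at 24 h after si-A1 and 6 after si-A2, in both cases the 6 helicase subunits MCM2 to MCM7. MCM4 fell by 2.01 (limma adjusted p = 7.48e-05) after si-A1 and fell by 2.29 (adjusted p = 2.81e-05) after si-A2. The subunits ORC2, ORC3, ORC4 and ORC5 lay between -0.22 and 0.30 in both comparisons, with none called. The medians of the list were -1.06 and -0.89. At 48 h 8 of 12 fell after si-A1, now with ORC5 (-0.98) and MCMBP (-1.33), a partner of the MCM complex, and 0 after si-A2, where 6 of 12 were at an unadjusted p below 0.05 (16.0% of all probes) and the median was -0.62. At 48 h si-A2 exceeded si-A1 for MCM3, MCM4, MCM5 and MCM6, by 1.19, 1.53, 1.36 and 1.05.

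Of the origin firing genes, 10 of 17 tested fell after si-A1 and 9 of 17 after si-A2 at 24 h, with medians of -1.56 and -1.40. GINS1 did not pass the threshold at 24 h. GINS2, a subunit of the active helicase, fell by 2.55 (limma adjusted p = 2.32e-05) after si-A1 and fell by 2.63 after si-A2 (adjusted p = 1.48e-05), and MCM10, which activates the helicase, had values of -2.60 and -2.90, both called. CDC45, the helicase partner of GINS, had values of -1.78 and -2.16, and TICRR, which helps to recruit CDC45, of -1.85 and -2.55, all called. CCNE1, which encodes cyclin E1, read 0.11 and -0.15, while CCNE2, for cyclin E2, had called values of -1.56 and -1.82. At 48 h 14 of 18 fell after si-A1, with a median of -2.11 and the lowest value for TICRR (-3.42). After si-A2 at 48 h 0 of 18 were called, with 16 at an unadjusted p below 0.05 (16.0% of all probes) and a median of -0.82, and 6 of the 18 were higher than after si-A1.

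Of the genes that turn over or control CDT1, 2 of 15 fell after si-A1 at 24 h, and 2 fell and 1 rose after si-A2, with medians of -0.10 and -0.17 (all probes, 0.04 in both). PCNA, the sliding clamp on which CRL4 and DTL recognise CDT1, fell by 1.40 (limma adjusted p = 0.000654) and fell by 1.20 after si-A2 (adjusted p = 0.00179). Of the ligase subunits that act with DTL, CUL4A, CUL4B and DDB1 were called in no comparison, and RBX1 fell by 0.79 after si-A1 at 48 h (adjusted p = 0.00473) and had a value of -0.66 (adjusted p = 0.0468) after si-A2. SKP2, the substrate receptor of another CDT1 ligase, fell by 2.11 after si-A1 at 24 h and had a value of -0.56 (adjusted p = 0.373) after si-A2, and at 48 h si-A2 exceeded si-A1 by 1.69 (adjusted p = 0.00257). FBXO5, the inhibitor of the anaphase-promoting complex that degrades geminin, fell by 2.52 after si-A2 at 24 h and had a value of -1.28 (adjusted p = 0.0333) after si-A1. CDKN1A, which encodes the CDK inhibitor p21, rose by 1.79 after si-A2 at 24 h (adjusted p = 0.00011) and by 2.10 after si-A1 at 48 h (adjusted p = 0.000203). Its value was 0.68 (adjusted p = 0.0460) after si-A1 at 24 h and 1.21 (adjusted p = 0.0234) after si-A2 at 48 h. At 48 h 4 of 15 fell after si-A1 and 0 after si-A2, where 8 were at an unadjusted p below 0.05 (16.0% of all probes).

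**Figure D4:**
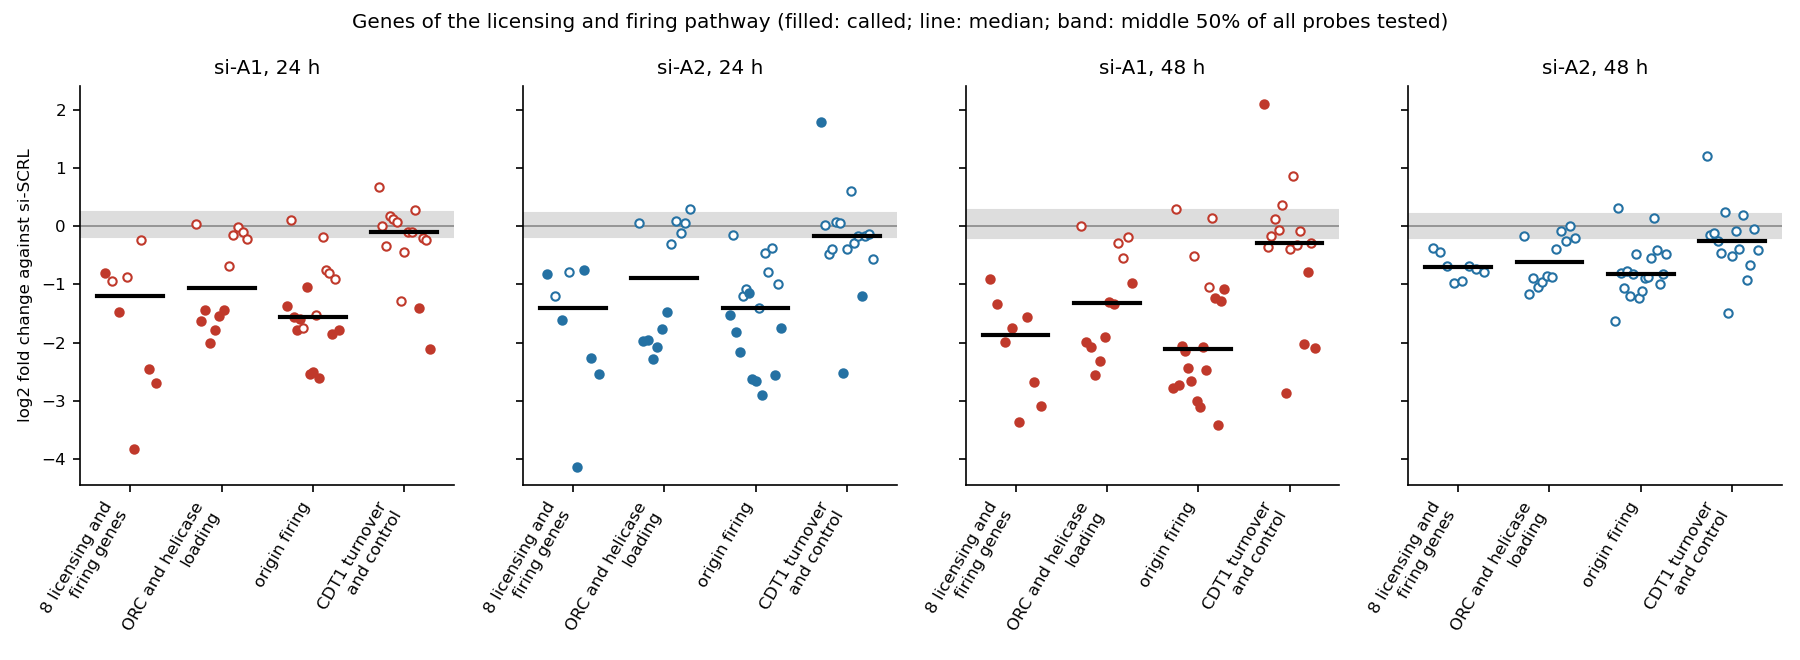
Log2 fold change against si-SCRL (vertical axis) of the genes of 4 lists after each siRNA at each time, with filled points for called genes, a line at each list's median and a grey band over the middle 50% of all probes tested. The 8 licensing and firing genes have medians of -1.20, -1.41, -1.87 and -0.70 from left to right, and those of the CDT1 turnover and control list are -0.10, -0.17, -0.28 and -0.26.

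The genes whose pattern was most like the mean profile of the 8 genes over the 12 arrays at 24 h were the helicase genes MCM4 (Pearson r 0.996) and MCM6 (0.995) and the replication-dependent histone genes H2AC11 (0.996), H3C4 (0.996) and H3C7 (0.995), among 19939 named genes. Over the 11 arrays at 48 h, r was between 0.972 and 0.998 for these 5. The arrays share slides and fall into siRNA groups, and r was not computed within the groups. Among the 8 genes, which are part of the mean themselves, GMNN followed it least at 24 h (0.776) and DBF4 least at 48 h (0.962).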

How the data were processed

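RNA of LNCaP cells was hybridised to one-colour Agilent SurePrint G3 arrays, v2 at 24 h and v3 at 48 h. Per the file headers, the deposited scanner tables, made by the authors with Agilent Feature Extraction 11.5.1.1, hold a processed intensity per spot, already background-subtracted, with background ratings and outlier marks. The authors also deposited log2 values that they had normalized, used here as an alternative only. The submitters' processing notes name R 3.4.3 and limma 3.34.8. All columns belonged to samples of the series. Groups were taken from the sample labels.

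Processed intensities were put on the log2 scale and quantile normalized within each time point in R 4.3.3 with limma 3.58.1. Spots marked as outliers were set to missing, and repeated spots of a probe averaged. A probe was tested where 3 or more arrays read it over a threshold set from 308 negative control spots, 3 SDs above their mean. The authors' interquartile filter was an alternative. One model per time point held siRNA and slide (limma, empirical Bayes, two-sided, Benjamini-Hochberg over all probes tested). CDC7 at 48 h has a missing value, for which limma's error of a difference is approximate. The change over time was an interaction term with all 23 arrays normalized together. A gene was read by its brightest probe that passed. All 8 genes are named, with fixed lists of the pathway, and the 5 genes most like their mean profile. The genes and lists were chosen with earlier results of these data known. The authors describe the replicates as biological, and p-values measure the spread between these samples.

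Replicates with the same number deviated together at 48 h (correlations 0.155 to 0.293, 10 of 10 pairs over 0.1) and not at 24 h (-0.14 to 0.15, 3 of 12 pairs), so numbers were taken as possible pairs at 48 h only, from the data and not from the labels. Same-numbered samples also shared a slide, which was not removed here. Correlations between samples with unlike numbers were not computed, so pairing and slide cannot be told apart. Alternatives changed the scaling, background correction, filters, slide term, probes per gene and arrays used. Normexp was run on the median signal, the background signal column used here being a median, and, like the fit with outlier spots kept, it was added after the data were seen.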

Additional observations from a re-analysis of the deposited data

Results flagged for a closer look

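DBF4 after si-A1 at 48 h read 4.69, 4.77, 4.68 and 4.69, and replicate 2 stood apart from the other 3, with a gap of 0.868 of the range of the group. This was 1 of 39 groups of 4 arrays examined, and chance gives about 1 in 20. The whole range was under 0.1 on the log2 scale, and the DBF4 difference from si-SCRL was called without this array as well.

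The effect of si-A2 on DTL differed between the time points by 3.52 on the log2 scale, with the 24 h level below the background rating. The effect of si-A1 on GMNN changed by -1.32. Both were tested with an interaction term in limma, with adjusted p-values of 0.00306 and 0.00448. Array version and time point cannot be told apart in these differences.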

How the results depend on the processing

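ORC1, ORC6 and DTL were called at 24 h for both siRNAs under all 14 alternatives and with each of the 12 arrays left out, with smaller values when no background was subtracted. With only the compared groups in the fit, the count at 24 h was 3 in place of 5 after si-A1 and 4 in place of 6 after si-A2. In that setting the count of si-A2 against si-A1 at 48 h was 0 in place of 3. That count was 5 without background correction, 5 with normexp and 5 with the well-above-background filter. The count after si-A2 at 48 h, 0 in the model reported, was 3 without background correction and 1 each with 75th percentile scaling, normexp, outlier spots kept, slide as a random block, no filter on dim probes and the well-above-background filter. The count after si-A1 at 48 h was 7 without background correction, with normexp, with outlier spots kept and with only the groups compared. A required log2 fold change of 1 also gave 7. With the dim array kept, the counts were 0 after si-A1 at 48 h, 0 for si-A2 against si-A1, and 0 for either interaction. Array weights restored 8, 3, 1 and 1. The si-A1 interaction count was 0 with the interquartile filter. With the replicate block in place of the slide the si-A2 interaction count was 0, the counts were 4 and 4 at 24 h and 7 after si-A1 at 48 h, and no other count of calls moved. The cause was not tested.

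Some signs turned. CDC6 in si-A2 against si-A1 at 24 h was 0.019 with normexp and 0.024 without background correction, and its si-A1 interaction was 0.0030 without background correction. With the dim array kept, si-A2 against si-A1 at 48 h was -0.50 for CDC6, -0.061 for CDT1, -0.37 for DBF4 and -0.39 for GMNN (0.54, 1.31, 0.77 and 0.89 without it), and the si-A2 interaction was -0.49 for CDC6, -0.34 for CDT1 and -1.12 for GMNN (0.51, 0.93 and 0.09 without it).

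Leaving out 1 array at a time gave counts of 4 to 5 after either siRNA at 24 h, 0 to 0 for their difference, 6 to 8 after si-A1, 0 to 0 after si-A2 and 0 to 4 for their difference at 48 h, 0 to 1 for the si-A1 interaction and 0 to 2 for the si-A2 interaction. The 48 h difference had no call without si-A2 replicate 1. The GMNN interaction was lost without si-SCRL replicates 1 or 2 or si-A1 replicates 2 or 3 at 24 h, or si-SCRL replicate 4 or si-A1 replicates 1 or 3 at 48 h. The DTL interaction was lost without si-SCRL replicates 3 or 4 at 24 h, or si-SCRL replicates 1, 3 or 4 or si-A2 replicates 1 or 4 at 48 h. In si-A2 against si-A1 at 24 h the range spanned 0 for CDC6 (-0.069 to 0.018), DBF4 (-0.058 to 0.17) and DTL (-0.65 to 0.055). The DTL range rests on arrays mostly not well above background. The range also spanned 0 for the si-A1 interactions of CDC6 (-0.13 to 0.055) and ORC1 (-0.27 to 0.011) and the si-A2 interaction of GMNN (-0.037 to 0.21). Normexp on the mean signal was not run. DTL was near or below background after either siRNA at 24 h, which limits the size of its fold change.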
